A study of Mus musculus with 22 samples.

Results

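Gene expression was compared between the replicate 2 and the replicate 1 RNA samples of primary mouse embryonic fibroblasts, with the genotype difference set aside as a term of the model. The series holds 22 samples, of which 4 RNA libraries were used here and 18 were not analysed here. WT1 and WT2 came from Lsh+/+ fibroblasts and KO1 and KO2 from Lsh-/- fibroblasts, which lack the chromatin remodeller Lsh, encoded by Hells. All were derived from the bodies of C57BL/6 embryos at stage E13.5 (counted in days after conception), grown in the same serum-containing medium and described as passage 3 to 4, and no sample was given a treatment. The labels call the second set biological replicas and do not say whether the number marks other embryos, litters, derivations, culture days or sequencing runs, so culture, animal and run cannot be told apart here.

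Fibroblasts grown from whole embryo bodies are a mixture of mesenchymal cells from limb, trunk, skin and organ stroma rather than 1 cell type. They make the collagens, proteoglycans and growth factor binding proteins of connective tissue, and keep part of the homeobox code of the body site they came from. On plastic and in serum such cells take up a wound-like state with stress fibres, matrix proteases and growth factor ligands, driven in part by serum response factor, YAP and AP-1 (dimers of Fos and Jun proteins). With passage they slow down and express the cell cycle inhibitors of the Cdkn2a locus. The gene lists described below follow these and other programmes, and were chosen with earlier results of these data known.

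The genes were found by keeping transcript rows that all 4 files share, summing RPKM (reads scaled by transcript length and by the mapped reads of the library) over the rows of a gene, and requiring at least 0.5 RPKM in at least 2 libraries. Of 16271 genes with rows in all files, 11149 passed and 5122 did not. A gene could pass through 1 replicate pair alone, as Gdf10, Lgr5, Adamts15, Ibsp and Fosl1 did, and such genes enter the counts below. Just inside the limit stood Col9a1, whose second-highest library read 0.501 RPKM, and just outside it Epyc, whose second-highest read 0.4996. The difference given throughout is the mean of WT2 minus WT1 and KO2 minus KO1 in log2(RPKM + 0.5). A positive value means higher in replicate 2, and the scale understates the change of genes near 0. A call means a limma p-value adjusted by Benjamini-Hochberg under 0.05, with 1 residual degree of freedom per gene. Adjusted p-values below are from that fit, and levels are given as RPKM, with pairs of values standing for WT1 and KO1 against WT2 and KO2. Genes named by none of the rules, chosen after their values were seen, were Acta2, Areg, Atf3, Boc, Ccl2, Cdkn1a, Cdon, Ckap2, Col1a1, Col1a2, Dusp1, Dusp6, Fosl2, Ivl, Jun, Junb, Jund, Lce1g, Lif, Lyz2, Myh11, Pdgfrb, Peg3, Pitx1, Plagl1, Rian, Serpinb2, Spry4, Tbx4 and Tbx5.

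Processing also differed with the number. The replicate 1 files held 26886 transcript rows and the replicate 2 files 21136. The 5750 rows found only in replicate 1 reached at most 1.20 RPKM. The shared rows were all 21136 rows of the replicate 2 files, so the choice of rows follows that number. Among the shared rows, 1761 and 1561 stood at 0 in WT1 and KO1, but 712 in WT2 and 562 in KO2, and none was at 0 in all 4. How far these zeros follow from the choice of rows was not tested. The value of a single read, taken from the commonest ratio between low values of 2 libraries, put WT2 at 1.34 times the depth of WT1 and KO2 at 1.11 times the depth of KO1. The absolute depths are not given by these files. Genes at 1 RPKM or more numbered 9284 and 9176 in replicate 1 and 10058 and 10068 in replicate 2. Hells was measured at 0.865 RPKM in WT1, 0.430 in KO1, 1.06 in WT2 and 0.550 in KO2, lower in the KO library of both numbers and not called between numbers (adjusted p = 0.379). Actb was at 2306 and 1825 against 1492 and 1228 RPKM, whereas Gapdh, a gene every cell uses, was listed at 0.160 and 0.298 against 0 and 0.179 RPKM, so a value near 0 in these files cannot be read as silence.

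Of the 11149 genes tested, 5323 differed between the replicate numbers, which is 47.7% of those tested. In replicate 2, 3992 genes (35.8%) were higher and 1331 (11.9%) lower. Counts of called list members below are to be read beside these shares. Each called gene moved the same way in both genotypes. That follows largely from the fit, whose only residual is the disagreement between the genotypes. The median over all genes was 0.25, so a typical gene read slightly higher in replicate 2. Median-ratio scaling of the libraries brought that median to 0.00 and the split to 2564 genes higher (23%) and 2378 lower (21.3%), and changes of single genes are best read against the shift of 0.25. Across genes, which are not independent replicates, WT2 minus WT1 and KO2 minus KO1 had a Pearson correlation of 0.875, and the sign was shared by 82.3%. A difference of at least 4-fold in both genotypes, a description with no test, was found for 196 genes higher (1.76%) and 82 lower (0.735%) in replicate 2. Leaving out a library removes the genotype term, and called genes then numbered 4509 without WT1, 4049 without KO1, 2088 without WT2 and 2705 without KO2. With 2 libraries a number, every p-value measures the spread between these libraries only. Each SE and p-value also borrows variance from other genes, with a median of 9.68 prior degrees of freedom beside 1 residual. They are therefore not the measured spread of a single gene alone.

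**Figure D1:**
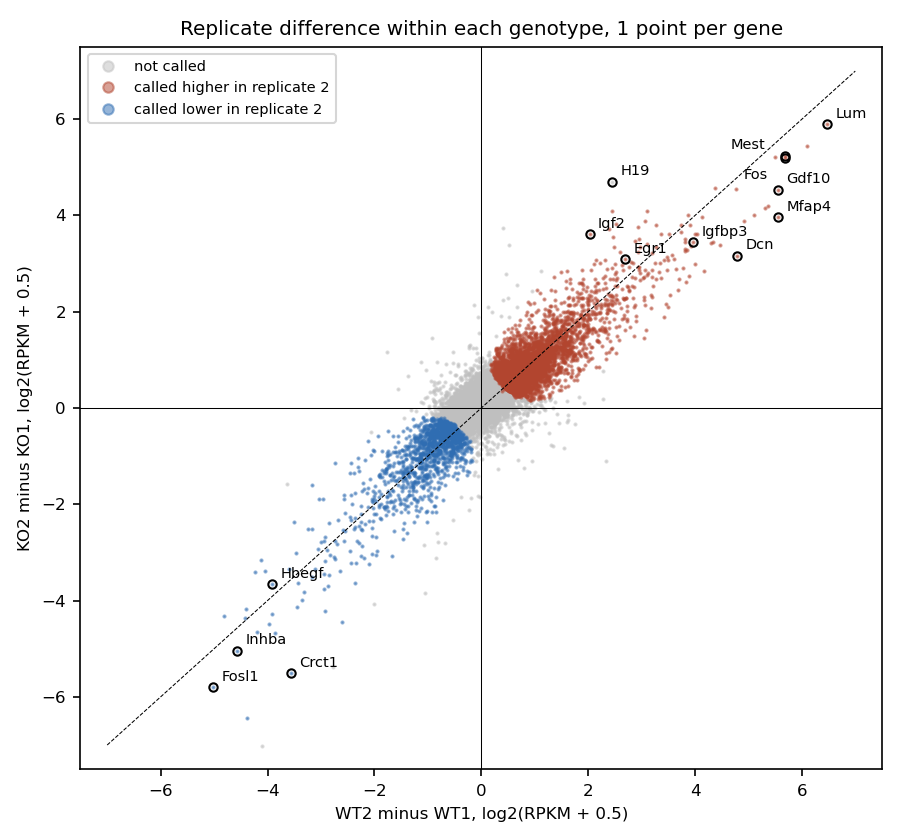
Each point is 1 of 11149 genes. The x axis gives WT2 minus WT1 and the y axis KO2 minus KO1, both in log2(RPKM + 0.5), and colour marks genes called higher or lower in replicate 2. Points lie along the dashed line of equal difference, from Lum at 6.48 and 5.89 to Fosl1 at -5.02 and -5.80, and H19 and Igf2 stand above it.

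Secreted matrix and signalling proteins of loose connective tissue led the genes that were higher in replicate 2. Lum (chr10:97028135-97035338 in mm9), which encodes the collagen-binding proteoglycan lumican, was measured at 0.718 RPKM in WT1, 1.27 in KO1, 108 in WT2 and 105 in KO2. Its difference of 6.19 (SE 0.19) was the largest of the named genes (adjusted p = 2.84e-08), and the replicate 2 libraries stood far above both replicate 1 libraries. The secreted Wnt antagonist Sfrp2 was at 0.537 RPKM in WT1, 0.273 in KO1, 70.3 in WT2 and 33.3 in KO2, a difference of 5.77 (SE 0.19). Gas1, a membrane protein that binds Hedgehog ligands and was first found in growth-arrested fibroblasts, was at 3.37 RPKM in WT1, 3.52 in KO1, 175 in WT2 and 149 in KO2. These genes had a few RPKM or less in replicate 1 and were abundant in replicate 2.. Eln, the elastin gene, was at 2.70 and 5.25 against 132 and 106 RPKM. The network-forming collagen Col8a2 was at 0.901 and 1.07 against 55.4 and 27.7 RPKM. The matricellular gene Nov was at 7.87 and 8.09 against 173 and 203 RPKM. Replicate 2 was again the higher pair. Gdf10, a secreted TGF-beta family ligand, was near 0 in replicate 1 (0.0663 and 0.143 against 26.1 and 14.5 RPKM). Islr, a leucine-rich repeat protein of mesenchymal cells, and Fxyd6, a regulator of the sodium pump, differed by 4.56 and 4.66. Groups did not overlap for any of these genes. They were chosen for a large difference in both genotypes, so that separation follows largely from the choice.

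Secreted growth factors, a prostaglandin synthase and an AP-1 subunit were among the leaders of the genes that were lower in replicate 2. Fosl1 (chr19:5447698-5455939), which encodes the AP-1 protein FRA1, was at 23.9 RPKM in WT1, 33.1 in KO1, 0.256 in WT2 and 0.101 in KO2. That difference of -5.41 (SE 0.21) took it from well expressed to under the 0.5 RPKM limit in both genotypes (adjusted p = 2.00e-07). The prostaglandin synthase gene Ptgs2 was at 309 RPKM in WT1, 339 in KO1, 10.6 in WT2 and 16.5 in KO2. Each of these was high in both replicate 1 libraries and low in both of replicate 2. Il11, a cytokine of the interleukin 6 family, was at 21.2 and 31.5 against 0.685 and 0.775 RPKM. The epidermal growth factor family ligand Ereg was at 48.3 and 60.5 against 1.78 and 2.46 RPKM, and its relative Hbegf at 183 and 167 against 11.6 and 12.8 RPKM. Sema7a, a membrane-anchored semaphorin, differed by -4.26. In all of these both replicate 1 libraries lay above both replicate 2 libraries. As on the higher side, the genes were chosen for a large difference in both genotypes, which largely fixes that order.

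**Figure D2:**
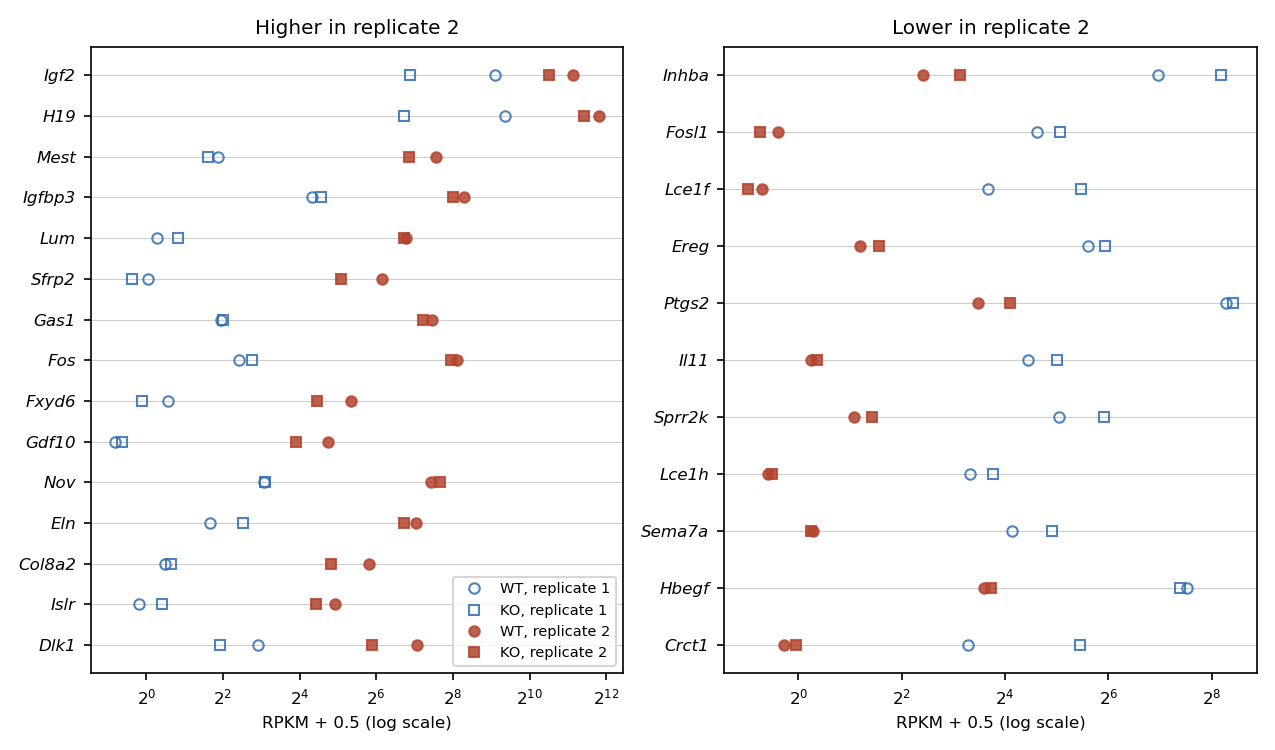
The x axis gives RPKM + 0.5 on a log scale and each row is a gene. Open symbols are replicate 1, filled symbols replicate 2, circles WT and squares KO. In every row the replicate 2 pair lies wholly to one side of the replicate 1 pair. Most rows are genes chosen for a large difference in both genotypes, so that separation follows largely from the choice. Igf2 and H19 show the widest gap between WT1 and KO1 on the left panel.

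In the insulin-like growth factor axis both ligands and several binding proteins were called higher in replicate 2, and a further binding protein lower. Igf2 (chr7:149836673-149846941), the fetal growth factor expressed from the paternal allele, was at 548 RPKM in WT1, 117 in KO1, 2239 in WT2 and 1443 in KO2. Its difference of 2.82 (SE 0.53) passed narrowly (adjusted p = 0.0485) and was not called after median-ratio scaling (adjusted p = 0.0927). Its call was also lost with WT2 or KO2 left out. H19, the maternally expressed noncoding RNA beside it, was at 661 RPKM in WT1, 105 in KO1, 3604 in WT2 and 2756 in KO2, and its difference of 3.58 (SE 0.91) was not called (adjusted p = 0.147). Over the alternatives its adjusted p reached 0.253 after quantile normalization, and it was called in 6 of them. Among these its adjusted p was 0.0151 with no filter and 0.00524 with the transcript of the highest mean. Another was the fit without WT1, which left KO1 as the only replicate 1 library and had no genotype term. For both genes KO1 stood far below WT1, and both replicate 2 libraries stood above both of replicate 1. The ligand Igf1 was at 0.944 and 2.11 against 25.5 and 18.3 RPKM. Among binding proteins, which hold the ligands in the matrix, Igfbp3 was at 19.5 RPKM in WT1, 23.1 in KO1, 311 in WT2 and 255 in KO2, a difference of 3.70 (SE 0.18), and Igfbp4 and Igfbp5 differed by 3.94 and 3.56. Igfbp7, a distant relative that binds insulin-like growth factors weakly, went the other way (240.4 and 397 against 93.7 and 148 RPKM), though without a call when WT2 was left out. Over the axis, 12 of 19 tested members were called higher in replicate 2 and 2 lower, with a median difference of 0.98 beside 0.25 for all genes. With WT2 left out, 6 were called higher and 0 lower, and 7 and 1 without KO2.

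Most imprinted genes with a call were higher in replicate 2. Mest, a paternally expressed gene of mesoderm, was at 3.16 RPKM in WT1, 2.58 in KO1, 187 in WT2 and 116 in KO2, a difference of 5.46 (SE 0.18) that placed it beside Lum among the largest. Dlk1, whose product is a Notch ligand relative that holds back fat cell differentiation, was at 7.10 and 3.29 against 132 and 59.0 RPKM and lost its call when KO1 was left out. Cdkn1c, the imprinted cell cycle inhibitor p57, was at 12.2 and 20.7 against 258 and 232 RPKM. Each of these was far higher in both replicate 2 libraries. The paternally expressed zinc finger gene Peg3 was at 1.75 and 2.63 against 26.8 and 26.2 RPKM. Plagl1, another imprinted zinc finger gene, was at 9.18 and 6.27 against 42.2 and 35.4 RPKM. Peg10, a gene derived from a retrotransposon, was the called exception at 9.19 and 8.54 against 3.91 and 3.92 RPKM. In the list of imprinted genes, 16 of 26 tested members were called higher in replicate 2 and 1 lower, with a median difference of 1.12. The noncoding RNA Rian did not differ by a call (68.0 and 75.3 against 71.4 and 78.5 RPKM, adjusted p = 0.76), so the direction was not shared by every imprinted gene. Leaving out WT2 gave 10 higher and 1 lower. Under other settings the median was 0.61 with no filter.

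Wnt antagonists, receptors and R-spondins were among the genes higher in replicate 2, and Wnt5a and Lef1 among those lower. Sfrp1, a secreted antagonist like Sfrp2, was at 2.61 and 3.06 against 50.3 and 42.8 RPKM. Lgr5, a receptor for R-spondins, was at 0.0851 RPKM in WT1, 0.270 in KO1, 8.25 in WT2 and 10.2 in KO2, and its ligand Rspo3 at 1.56 and 2.22 against 15.3 and 20.2 RPKM. The ligand Wnt5a, which often signals without beta-catenin, was lower (31.4 and 34.3 against 20.1 and 19.7 RPKM), with no call when WT2 or KO2 was left out. Lef1, a nuclear partner of beta-catenin, was at 1.29 and 1.20 against 0.214 and 0.407 RPKM. Of the Wnt list, 29 of 47 tested members were called higher in replicate 2 and 5 lower, with a median difference of 0.94. Median-ratio scaling left 25 higher and 6 lower, so the split kept its direction. Without WT2, 22 stood higher and 2 lower, and 22 and 1 without KO2. The median became 0.60 with no filter.

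Transcription factors that pattern mesenchyme differed widely, and more members were higher than lower. Meox1, a homeobox gene of the somites, was near 0 in replicate 1 (0.110 and 0.0333 against 11.5 and 5.28 RPKM). Its relative Meox2 was at 0.0580 and 0.00696 against 2.96 and 3.47 RPKM. Osr2, a zinc finger factor of limb and palate mesenchyme, was at 0.119 and 0.0860 against 5.77 and 4.24 RPKM. All 3 passed the limit of 0.5 RPKM only through the replicate 2 pair, so their low replicate 1 values are no separate support. They still enter the list counts below. Gli2, a transcription factor of the Hedgehog pathway, was at 0.409 and 0.381 against 6.62 and 5.64 RPKM and passed in that way too. The Hedgehog co-receptors that work beside Gas1 were higher with it, Cdon at 1.23 and 1.19 against 16.2 and 16.7 RPKM and Boc at 1.85 and 1.85 against 12.2 and 10.6 RPKM. In the opposite direction stood Foxc2, a forkhead factor of mesoderm, at 23.2 and 12.6 against 7.17 and 4.44 RPKM. Msx2, a homeobox factor of bone and limb, was at 8.21 and 4.21 against 1.79 and 2.66 RPKM, and neither of these was called when WT2 or KO2 was left out. Over the list, 41 of 59 tested members were called higher in replicate 2 and 6 lower, with a median difference of 0.98, and 9 members were at least 4-fold higher in both genotypes. The counts without WT2 were 21 and 1, and 29 and 0 without KO2.

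Hox genes, whose paralog number follows position along the body axis, were described in 3 bands. In paralog groups 9 to 13, the posterior band, 11 of 14 tested members were called higher in replicate 2 and 0 lower, with a median difference of 1.31. Hoxa10, a gene of limb and lumbar levels, was at 4.81 RPKM in WT1, 2.09 in KO1, 15.5 in WT2 and 15.5 in KO2. Hoxd12, of distal limb, was at 0.421 and 0.00649 against 2.42 and 2.59 RPKM. KO1 was the lowest library for both, and neither was called when WT2 or KO2 was left out. In groups 5 to 8, 5 of 11 tested members were called higher in replicate 2 and 2 lower, with a median difference of 0.31. In groups 1 to 4, the anterior band, 4 of 10 tested members were called higher in replicate 2 and 2 lower, with a median difference of 0.15, which became -0.07 after median-ratio scaling and -0.18 after quantile normalization. Members called higher made up 78.6% of groups 9 to 13, 45.5% of groups 5 to 8 and 40% of groups 1 to 4. The share of all genes tested was 35.8%. Differences between the bands were not tested. A fit lacking WT2 gave the posterior band 2 higher and 0 lower, and 2 and 0 without KO2. For the posterior band the median was 0.76 without KO1. For groups 5 to 8, leaving out WT1 gave 5 higher and 0 lower, 1 and 0 without KO1, 0 and 0 without WT2, and 1 and 0 without KO2. For groups 5 to 8 the median was 0.0385 after median-ratio scaling, 0.13 after quantile normalization, 0.0238 without KO1 and 0.66 without KO2. In the anterior band the counts without WT1 were 2 and 2, 0 and 1 without WT2, and 1 and 1 without KO2. For the anterior band the median was 0.27 without KO2. Of 3 limb factors, Pitx1, a gene of the hindlimb, was higher at 4.30 and 0.904 against 11.4 and 7.15 RPKM. Tbx4, its hindlimb target, was at 1.39 and 0.158 against 3.57 and 2.95 RPKM, and the forelimb gene Tbx5 at 0.271 and 0.280 against 1.72 and 1.65 RPKM. Pitx1 and Tbx4 were not called without WT2 or KO2.

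Genes that define fibroblasts were present in all 4 libraries, but the members differed in direction. The platelet-derived growth factor receptor Pdgfra, a general mark of mesenchymal fibroblasts, was at 0.987 RPKM in WT1, 2.46 in KO1, 23.2 in WT2 and 23.1 in KO2, and Pdgfrb at 14.8 and 26.6 against 48.8 and 52.8 RPKM. Decorin, encoded by Dcn, was at 3.88 and 13.9 against 121 and 129 RPKM, with no call after median-ratio scaling or when WT2 or KO2 was left out. The main fibrillar collagen genes were abundant in each library and higher in replicate 2. Col1a1 was at 318 and 291 against 517 and 464 RPKM. Its partner chain Col1a2 was at 308 and 289 against 623 and 617 RPKM, and Col3a1 at 50.6 and 73.5 against 262 and 289 RPKM. By contrast S100a4, a calcium-binding protein used as a mark of activated fibroblasts, was at 277 RPKM in WT1, 313 in KO1, 35.6 in WT2 and 45.8 in KO2. The intermediate filament gene Vim was lower at 1307 and 1198 against 879 and 782 RPKM. The surface glycoprotein Thy1 was lower at 252 and 444 against 220.2 and 235 RPKM. Calls were lost without WT2 or KO2 for Vim, Thy1, Pdgfrb and Col1a1, without WT1 for Vim and without KO1 for Thy1. Across the identity list, 12 of 18 tested members were called higher in replicate 2 and 3 lower, with a median difference of 1.19. The summed RPKM of the 11 defining fibroblast markers was 2883 in WT1, 3100 in KO1, 3133 in WT2 and 3055 in KO2, so their total overlapped between numbers. Leaving out WT2 gave 8 higher and 1 lower, and 7 and 1 without KO2. The median became 0.69 for genes with 1 transcript row.

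Matrix genes differed in both directions. Beside Lum and Eln stood Mfap4, a microfibril protein, at 7.90 and 14.3 against 396 and 229 RPKM, which was not called after quantile normalization. Lower in replicate 2 were 2 genes of hyaluronan biology. Has2, the main hyaluronan synthase, was at 43.8 RPKM in WT1, 67.0 in KO1, 3.96 in WT2 and 4.31 in KO2. Cd44, the hyaluronan receptor, was at 264 RPKM in WT1, 385 in KO1, 36.1 in WT2 and 34.2 in KO2. Replicate 1 held the higher pair for both. Ctgf, a matricellular protein and YAP target, was lower at 1096 and 951 against 151 and 182 RPKM and the thrombospondin gene Thbs1 at 1069 and 1339 against 383 and 524 RPKM. In the list of proteoglycans, elastic fibres and matricellular proteins, 22 of 42 tested members were called higher in replicate 2 and 8 lower, with a median difference of 1.06. Its members ranged in both directions, so the median hides 10 members at least 4-fold higher and 3 at least 4-fold lower. Of the fibrillar collagens and their assembly factors, 16 of 32 tested members were called higher in replicate 2 and 5 lower, with a median difference of 0.42. The fibril-associated collagen Col14a1 was higher (0.455 and 0.249 against 4.96 and 3.09 RPKM) and the procollagen enhancer Pcolce2 lower (8.52 and 8.20 against 1.26 and 1.29 RPKM). In the basement membrane list, 7 of 18 tested members were called higher in replicate 2 and 5 lower, with a median difference of 0.21, and that median was -0.01 after median-ratio scaling. Of that list 38.9% were called higher and 27.8% lower, beside 35.8% and 11.9% of all genes. The laminin gene Lama4 was higher (0.723 and 1.18 against 5.65 and 4.63 RPKM). For the proteoglycan list, leaving out WT2 gave 18 higher and 4 lower, and 19 and 5 without KO2. For the proteoglycan list the median was 0.71 after quantile normalization. In the fibrillar collagens the counts without WT2 were 7 and 2, and 10 and 3 without KO2. For the fibrillar collagens the median was 0.16 after median-ratio scaling. A fit lacking WT2 gave the basement membrane list 4 higher and 1 lower, and 5 and 3 without KO2. For the basement membrane list the median was 0.0529 with no filter, 0.0553 with a mean of at least 1 RPKM required, 0.0553 for genes with 1 transcript row, 0.0621 without WT1 and 0.35 without KO1.

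Matrix protease genes differed in both directions. The largest negative difference of any gene tested belonged to Serpinb2, an inhibitor in the list, at 9.03 RPKM in WT1, 67.1 in KO1, 0.0515 in WT2 and 0.0223 in KO2, and was not called (-5.56, adjusted p = 0.117). Plaur, the urokinase receptor, was at 42.6 RPKM in WT1, 47.0 in KO1, 5.42 in WT2 and 3.16 in KO2, and Plau, urokinase itself, at 86.1 RPKM in WT1, 113 in KO1, 17.7 in WT2 and 13 in KO2. Protease and receptor both stood higher in replicate 1. On the higher side Adamts1, a metalloprotease, was at 8.10 and 10.7 against 37.7 and 61.0 RPKM and Adamts15 at 0.0115 and 0.0496 against 2.17 and 1.76 RPKM. Of the list, 21 of 38 tested members were called higher in replicate 2 and 9 lower, with a median difference of 0.66, and the summed RPKM of its members was 2822 in WT1, 2898 in KO1, 1182 in WT2 and 1228 in KO2. The fit lacking WT2 called 9 higher and 4 lower, and 8 and 5 without KO2. The median became 0.39 after median-ratio scaling and 0.32 after quantile normalization.

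Proximal promoters of 3 genes lower in replicate 2 are shown as examples that hold an AP-1 type element, TGANTCA on either strand. They were chosen for holding it, and any part of AP-1 proteins in the differences was not tested. The bases lie 140 to 11 before the RefSeq start (GRCm38.p6), and capitals mark the element.
Il11, chr7:4778152-4778281, minus strand: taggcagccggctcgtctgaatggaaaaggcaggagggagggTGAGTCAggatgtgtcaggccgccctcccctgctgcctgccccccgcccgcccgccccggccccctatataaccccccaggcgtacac
Plaur, chr7:24462343-24462472, plus strand: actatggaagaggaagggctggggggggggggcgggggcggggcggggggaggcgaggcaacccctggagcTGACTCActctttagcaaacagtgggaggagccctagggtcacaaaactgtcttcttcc
Tnfaip3, chr10:19015421-19015550, minus strand: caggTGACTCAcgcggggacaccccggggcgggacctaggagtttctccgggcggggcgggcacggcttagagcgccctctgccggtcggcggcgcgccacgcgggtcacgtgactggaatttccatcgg
The element begins 98 bases before the start in Il11, 69 in Plaur and 136 in Tnfaip3, which encodes a ubiquitin-editing brake on NF-kappaB and was at 9.55 and 11.5 against 1.02 and 1.26 RPKM. Of the 82 genes at least 4-fold lower, 52 had promoter windows in the RefSeq table, from 250 bases before to 50 after the start, and 15 of their 71 windows (21.1%) held the element. Among windows of all genes tested the share was 5.03%, among the genes at least 4-fold higher 5.11%, and 7.81% of all 32851 windows held it. A match is a description of the letters and not of a bound factor. No window was in the table for Fosl1, Ereg or Hbegf.

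**Figure D3:**
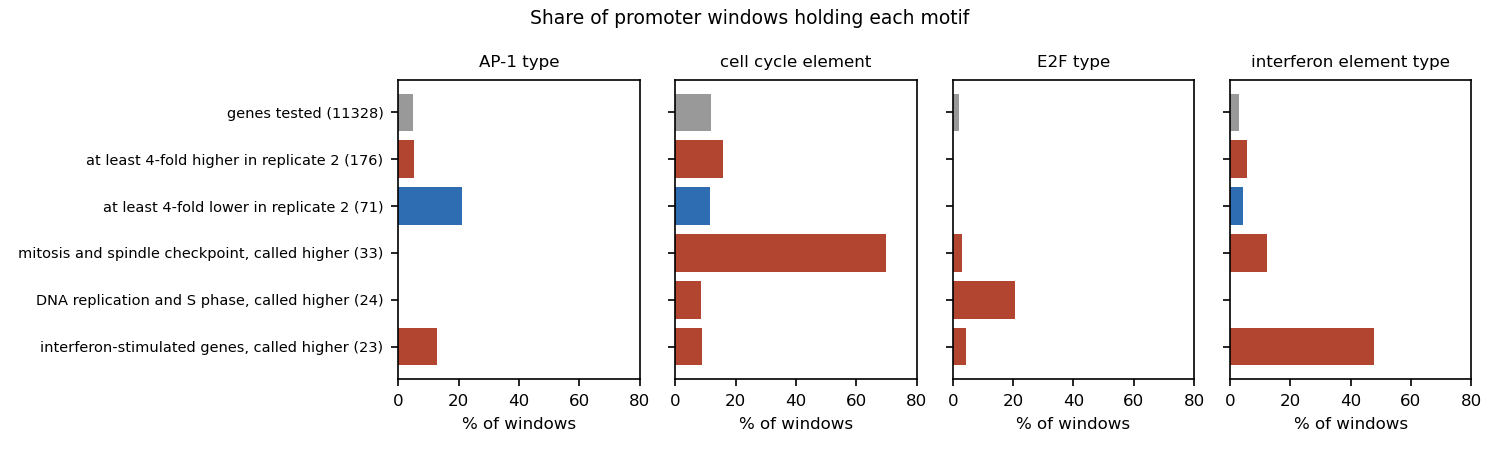
Bars give the percentage of promoter windows that hold each of 4 motif types on either strand, with the number of windows in brackets. The AP-1 type stands at 21.1% in the genes at least 4-fold lower, the cell cycle element at 69.7% in called mitosis genes, the E2F type at 20.8% in called replication genes and the interferon element at 47.8% in called interferon-stimulated genes.

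The immediate early genes, which growth factors and stress switch on within minutes, split into 2 groups. Fos (chr12:86814851-86818220) was at 4.84 RPKM in WT1, 6.28 in KO1, 274 in WT2 and 249 in KO2, a difference of 5.44 (SE 0.18) with an adjusted p of 2.91e-08. Fosb was at 6.87 and 9.79 against 95.1 and 65.3 RPKM and the zinc finger factor Egr1 at 55.1 RPKM in WT1, 34.0 in KO1, 359 in WT2 and 295 in KO2. Ier2 was at 56.7 and 51.9 against 196 and 181 RPKM, and Atf3, a stress-induced factor, at 3.73 and 3.19 against 13.48 and 12.2 RPKM. Replicate 2 was the higher pair for all of these. The Jun partners Jun, Junb and Jund were higher by 1.09, 0.96 and 1.36 on the log2 scale, of which Jun had no call without WT2 or KO2. Thus 2 of the 4 Fos family genes were higher in replicate 2 and the other two, Fosl1 and Fosl2 (43.0 and 44.5 against 25.6 and 29.4 RPKM), were lower. On the lower side stood also the nuclear phosphatases Dusp5 at 35.7 RPKM in WT1, 38.0 in KO1, 2.86 in WT2 and 2.61 in KO2 and Dusp4 at 36.9 and 104 against 4.42 and 5.12 RPKM, which switch off ERK, and the small Maf protein Maff at 31.4 and 43.2 against 11.7 and 11.6 RPKM. The call of Dusp4 was lost without WT2 or KO2 and that of Fosl2 without WT2. Dusp1 did not differ by a call (43.1 and 36.9 against 41.1 and 38.1 RPKM). In all, 12 of 30 tested members were called higher in replicate 2 and 14 lower, with a median difference of 0.08, and the median turned to -0.18 after median-ratio scaling, so the list has no common direction. With WT2 left out, 11 were called higher and 8 lower, and 10 and 8 without KO2. As alternatives the median stood at 0.16 with the transcript of the highest mean, 0.16 for genes with 1 transcript row, 0.0227 without WT2 and 0.14 without KO2.

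**Figure D4:**
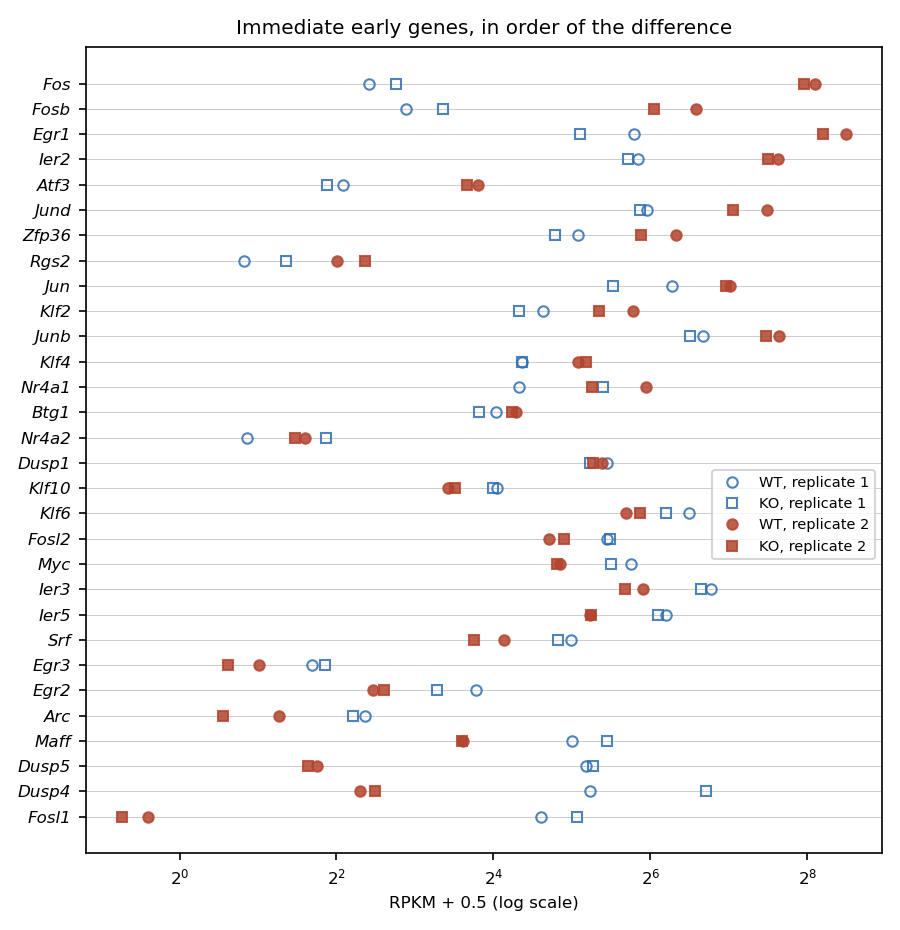
RPKM + 0.5 on a log scale (x axis) for the 30 tested immediate early genes, ordered from higher in replicate 2 (top) to lower (bottom). Open symbols are replicate 1, filled symbols replicate 2, circles WT and squares KO. Fos and Fosb stand to the right in replicate 2 and Fosl1, Dusp4 and Dusp5 to the left, while Dusp1 overlaps.

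Receptor tyrosine kinase genes differed in both directions, with epidermal growth factor family ligands and feedback inhibitors on the lower side. Areg, a ligand of the epidermal growth factor receptor like Ereg and Hbegf, was at 0.688 and 1.83 against 0.0331 and 0.0245 RPKM and had no call without WT2 or KO2. Replicate 1 held the higher values of all 3. The feedback inhibitor Spry4 was at 16.9 and 15.3 against 4.73 and 4.17 RPKM, and Dusp6, a phosphatase of ERK, at 37.8 and 42.7 against 18.5 and 18.5 RPKM. On the higher side, the growth factor midkine, encoded by Mdk, was at 4.61 and 1.75 against 43.2 and 37.8 RPKM and lost its call without WT2. Pleiotrophin, encoded by Ptn, was at 10.2 RPKM in WT1, 12.6 in KO1, 87.6 in WT2 and 86.7 in KO2. In the list, 20 of 51 tested members were called higher in replicate 2 and 16 lower, with a median difference of 0.21, a median that became -0.04 after median-ratio scaling. Leaving out WT2 gave 13 higher and 10 lower. That median was 2.74e-05 after quantile normalization, 0.43 without WT1 and 0.32 without KO1. With all libraries the called shares were 39.2% higher and 31.4% lower, beside 35.8% and 11.9% of all genes.

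Within the activin, TGF-beta and BMP family the activin A subunit and 2 secreted antagonists were lower. Inhba (chr13:16106308-16119045), which encodes that subunit, was at 125 RPKM in WT1, 289 in KO1, 4.79 in WT2 and 8.29 in KO2, a difference of -4.80 (SE 0.18) with an adjusted p of 4.17e-08. Follistatin, the activin antagonist encoded by Fst, was at 55.9 RPKM in WT1, 55.9 in KO1, 11.4 in WT2 and 11.8 in KO2. The BMP antagonist Grem1 was at 56.7 RPKM in WT1, 50.6 in KO1, 8.39 in WT2 and 9.75 in KO2. So the activin subunit and its antagonist were both lower in both genotypes. Higher in replicate 2 were the co-receptor Tgfbr3 at 1.15 and 2.04 against 9.31 and 11 RPKM and the secreted matrix protein Tgfbi at 2.36 and 2.54 against 24.2 and 20.7 RPKM. The ligand Bmp4 was at 5.10 and 1.15 against 30.0 and 27.8 RPKM, with no call when WT2 or KO2 was left out. For the family, 23 of 50 tested members were called higher in replicate 2 and 11 lower, with a median difference of 0.41, and median-ratio scaling gave 15 higher and 15 lower. Without WT2, 10 stood higher and 7 lower, and 10 and 7 without KO2. Under other settings the median was 0.21 after median-ratio scaling, 0.15 after quantile normalization and 0.25 without KO1.

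Most called members of the contractile list and of the list of serum response and YAP targets were lower in replicate 2. The immediate early genes Fos, Fosb, Egr1 and Ier2, described above, were higher. The lower direction therefore covers these lists and not every gene that growth factors switch on. Of the serum response and YAP targets, 1 of 30 tested members were called higher in replicate 2 and 19 lower, with a median difference of -0.63. Ankrd1, a YAP target, was at 67.0 and 47.8 against 8.20 and 12.5 RPKM and the fibronectin receptor subunit Itga5 at 175 RPKM in WT1, 146 in KO1, 28.5 in WT2 and 24.8 in KO2. Fstl1, a secreted glycoprotein, was the called exception (333 and 322 against 549 and 599 RPKM), with no call when WT2 or KO2 was left out. Among smooth muscle contractile genes, 4 of 28 tested members were called higher in replicate 2 and 16 lower, with a median difference of -0.81. The smooth muscle actin gene Acta2 was at 737 RPKM in WT1, 579 in KO1, 339 in WT2 and 297 in KO2, its partner Tagln at 1099 and 872 against 414 and 341 RPKM and calponin, encoded by Cnn1, at 145 and 58.1 against 23.9 and 16.2 RPKM, of which Cnn1 lost its call without WT2 or KO2 and Acta2 without KO2. The smooth muscle myosin gene Myh11 had no call and went opposite ways in the 2 genotypes (5.51 and 1.18 against 1.83 and 2.17 RPKM). Acta1, the skeletal actin gene and a serum response target, was at 129 and 84.0 against 23.8 and 20.8 RPKM. The summed RPKM of the contractile list was 5938 in WT1, 4803 in KO1, 2950 in WT2 and 2760 in KO2. In the serum response list the counts without WT2 were 0 and 12, and 0 and 11 without KO2. A fit lacking WT2 gave the contractile list 2 higher and 8 lower, and 1 and 9 without KO2.

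Several genes of cornified epidermis were among those lower in replicate 2 and lie together on the genome. Lce1f was at 12.2 RPKM in WT1, 43.6 in KO1, 0.111 in WT2 and 0.0102 in KO2. Crct1 was at 9.26 RPKM in WT1, 43.5 in KO1, 0.324 in WT2 and 0.471 in KO2. Sprr2k was at 32.5 RPKM in WT1, 59.6 in KO1, 1.60 in WT2 and 2.18 in KO2. These and Lce1h (9.55 and 13 against 0.168 and 0.198 RPKM) belong to the epidermal differentiation complex, which encodes proteins of the cornified layer. Lce1g was at 2.69 and 10.4 against 0.0246 and 0 RPKM, and Ivl, the involucrin gene, at 3.73 and 30.2 against 0.119 and 0.239 RPKM. All 6 lie on chromosome 3 between 92236504 and 92819609 (mm9), with KO1 the highest library for each. They were picked by name from genes on that chromosome at least 4-fold lower in both genotypes, so those traits follow from the choice. Other genes of the complex were not counted. Lce1f, Crct1 and Lce1g were not called after median-ratio scaling, Crct1 and Lce1g not without WT2 or KO2, and Ivl had no call (adjusted p = 0.0986). Of the 82 genes at least 4-fold lower, 13 lay on chromosome 3, these 6 among them. The share of all genes tested on that chromosome was not counted, so no excess can be read from this number. Of 6 defining epithelial markers, 3 stayed under 0.5 RPKM in every library, namely Cdh1 at 0.0171 and 0.0426 against 0.0244 and 0.0150 RPKM, Epcam at 0.0551 and 0.151 against 0.0137 and 0.0463 RPKM and Krt5 at 0.00691 and 0 against 0.0336 and 0.0537 RPKM, and none was called. The 6 summed to 2.08 RPKM in WT1, 2.26 in KO1, 5.79 in WT2 and 2.01 in KO2.

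Cytokine genes differed in both directions, while the called interferon-stimulated genes were all higher in replicate 2. Csf1, the macrophage growth factor, was at 184 RPKM in WT1, 210.3 in KO1, 35.2 in WT2 and 37.3 in KO2. The chemokine gene Ccl2 was at 67.8 and 86.1 against 20.7 and 22.3 RPKM, and Lif, of the interleukin 6 family, at 31.4 and 36.9 against 6.04 and 4.87 RPKM. These 3 were lower in both replicate 2 libraries. Il6st, the signalling receptor shared by Il11 and Lif, was higher at 18.1 and 18.5 against 54.0 and 58.3 RPKM. Il33, a cytokine kept in the nucleus, was also higher (0.0417 and 0.896 against 5.29 and 4.68 RPKM), with no call after quantile normalization or when WT2 or KO2 was left out. In the cytokine list, 17 of 38 tested members were called higher in replicate 2 and 13 lower, with a median difference of -0.03, and 6 members were at least 4-fold lower in both genotypes. The fit lacking WT2 called 5 higher and 7 lower, and 4 and 10 without KO2. The median became -0.18 with no filter, -0.32 with a mean of at least 1 RPKM required, -0.19 after median-ratio scaling, -0.48 after quantile normalization and -0.16 without KO1.

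Of the interferon-stimulated genes, 23 of 30 tested members were called higher in replicate 2 and 0 lower, with a median difference of 1.12. Ifit1, whose product binds foreign RNA, was at 0.241 RPKM in WT1, 0.641 in KO1, 2.47 in WT2 and 4.89 in KO2. Its relative Ifit3 was at 0.542 and 0.993 against 4.53 and 7.76 RPKM. Isg15, a ubiquitin-like modifier, was at 1.73 and 5.35 against 10.5 and 17.8 RPKM and had no call when WT2 or KO2 was left out. The replicate 2 pair was the higher one for each. Among complement genes C1s and Serping1 were higher by 3.07 and 2.62 on the log2 scale, of which C1s lost its call without WT2 or KO2. In the complement and class I list, 8 of 16 tested members were called higher in replicate 2 and 1 lower, with a median difference of 0.45. In the interferon list the counts without KO2 were 14 and 0. For the interferon list the median was 0.67 with no filter and 0.70 after quantile normalization. A fit lacking WT2 gave the complement and class I list 3 higher and 0 lower, and 4 and 0 without KO2. For the complement list the median was 0.29 with no filter, 0.23 after median-ratio scaling, 0.25 after quantile normalization and 0.21 without WT1.

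The promoters of Isg15 and Ifit1 show the interferon-stimulated response element type, GAAA, any 2 bases and GAAA again on either strand, that 11 of 23 windows (47.8%) of the called interferon genes held, against 2.82% of windows of all genes tested. Capitals mark the element, which in Isg15 forms 3 overlapping matches. Both genes are shown as examples that hold it, and interferon genes without a call were not counted apart. The matches describe the list and the letters, and their part in the difference was not tested.
Isg15, chr4:156200829-156200958, minus strand: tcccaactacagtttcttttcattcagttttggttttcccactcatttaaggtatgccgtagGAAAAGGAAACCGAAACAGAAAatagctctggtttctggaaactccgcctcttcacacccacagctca
Ifit1, chr19:34640749-34640878, plus strand: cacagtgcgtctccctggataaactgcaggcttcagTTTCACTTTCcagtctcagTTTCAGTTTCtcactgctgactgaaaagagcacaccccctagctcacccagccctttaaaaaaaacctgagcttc

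Proliferation genes were higher in replicate 2, and KO1 was the library with the lowest sums. Mki67, the proliferation antigen, was at 7.01 RPKM in WT1, 3.36 in KO1, 13.4 in WT2 and 13.4 in KO2, the thymidine kinase gene Tk1 at 4.85 RPKM in WT1, 2.60 in KO1, 12 in WT2 and 8.72 in KO2 and the mitotic kinase Aurkb at 3.15 and 1.51 against 6.91 and 5.36 RPKM. For each, KO1 was lowest, WT1 lay between it and the replicate 2 pair, and the call was lost without WT2 or KO2. In the mitosis list, 38 of 50 tested members were called higher in replicate 2 and 0 lower, with a median difference of 0.70, from 0.43 in the WT pair to 0.94 in the KO pair. The summed RPKM of that list was 217.7 in WT1, 113.7 in KO1, 296.2 in WT2 and 251.3 in KO2. Of the replication genes, 27 of 35 tested members were called higher in replicate 2 and 0 lower, with a median difference of 0.70. Median-ratio scaling left 25 mitosis and 18 replication genes higher and none lower. For the mitosis list, leaving out KO1 gave 7 higher and 0 lower, 0 and 0 without WT2, and 1 and 0 without KO2. For the mitosis list the median was 0.41 after quantile normalization, 1.10 without WT1 and 0.34 without KO1. In the replication list the counts without KO1 were 13 and 0, 1 and 0 without WT2, and 6 and 0 without KO2. For the replication list the median was 0.44 after median-ratio scaling, 0.40 after quantile normalization and 0.41 without KO1.

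Promoters of 2 mitosis genes are printed because 23 of 33 windows (69.7%) of the called mitosis genes held the cell cycle element TTTGAA on either strand, in capitals, against 11.7% of windows of genes tested. CCAAT, which such promoters often carry beside it, was found in 69.7% of mitosis windows, 66.7% of called replication windows and 37.5% of windows of genes tested, and the E2F type TTTCCCGC in 20.8% of replication windows against 2.02%.
Mki67, chr7:135716390-135716519, minus strand: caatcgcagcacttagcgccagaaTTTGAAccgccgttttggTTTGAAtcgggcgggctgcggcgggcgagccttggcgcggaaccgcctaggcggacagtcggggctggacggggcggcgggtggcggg
Ckap2, chr8:22185830-22185959, minus strand: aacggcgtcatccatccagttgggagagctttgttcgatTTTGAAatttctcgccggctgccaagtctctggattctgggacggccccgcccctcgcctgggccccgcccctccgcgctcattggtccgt
Mki67 holds the element at 116 and 98 bases before its start and Ckap2, a spindle protein measured at 6.09 and 2.82 against 8.04 and 7.53 RPKM, at 101. Ckap2 had no call after median-ratio scaling or when KO1, WT2 or KO2 was left out. These matches describe the list and the letters, and their part in the difference was not tested.

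Called replication-dependent histone genes were mostly lower in replicate 2. Of these, 1 of 18 tested members were called higher in replicate 2 and 13 lower, with a median difference of -1.06. Of 53 members present 35 did not pass the filter, and with no filter the median was -0.0147. The summed RPKM of the members present was 157 in WT1, 199 in KO1, 148 in WT2 and 161 in KO2 and overlapped between numbers. Hist1h4h was at 8.69 RPKM in WT1, 11.6 in KO1, 2.88 in WT2 and 2.77 in KO2 and Hist1h4a at 2.5 and 2.07 against 0.490 and 0.4 RPKM, while the linker histone Hist1h1c, whose RNA can also be polyadenylated, was higher (55.7 and 72.6 against 88.5 and 98.4 RPKM), with no call after median-ratio scaling or when WT1, WT2 or KO2 was left out. These RNAs mostly lack a poly-A tail, and the labels give poly-A selection for the libraries of both numbers, so how much of each reached a library was not tested. Near-identical copies share reads, and the authors' split of reads among them makes single members uncertain. Cell cycle inhibitors differed by member, with Cdkn2a, the locus of p16 and p19, at 69.1 RPKM in WT1, 107 in KO1, 28.2 in WT2 and 33.9 in KO2 and Cdkn1b, encoding p27, at 9.01 and 4.98 against 22.6 and 21.5 RPKM. The call of Cdkn2a was lost without WT2 and that of Cdkn1b without WT2 or KO2. The p53 target Cdkn1a was at 281 and 278 against 159 and 156 RPKM, with no call without WT2 or KO2. Hmga2, a chromatin protein gene of proliferating mesenchyme, was at 166 and 127 against 63.4 and 50.9 RPKM. In the list of p53 targets and senescence genes, 9 of 33 tested members were called higher in replicate 2 and 11 lower, with a median difference of -0.13. Omitting WT2 changed the counts to 4 and 5, and 3 and 7 without KO2. As alternatives the median stood at -0.41 after median-ratio scaling and -0.30 without KO1.

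Among nuclear genes of oxidative phosphorylation, 5 of 68 tested members were called higher in replicate 2 and 3 lower, with a median difference of 0.08. Of the cytoplasmic ribosomal proteins, 6 of 54 tested members were called higher in replicate 2 and 2 lower, with a median difference of 0.16. After median-ratio scaling these medians turned to -0.18 and -0.12, and both shares of called members lie below the 35.8% and 11.9% of all genes. For the respiration list, leaving out WT1 gave 3 higher and 0 lower, 1 and 1 without KO1, 0 and 0 without WT2, and 3 and 1 without KO2. For the respiration list the median was 0.13 without WT1. In the ribosomal list the counts without KO1 were 2 and 2, and 0 and 1 without WT2. For the ribosomal list the median was 0.0924 after quantile normalization and 0.0407 without KO2.

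In the hypoxia and glycolysis list, 12 of 39 tested members were called higher in replicate 2 and 7 lower. These shares of 30.8% and 17.9% stood beside 35.8% and 11.9% of all genes. The median difference was 0.13, or -0.14 after median-ratio scaling. The angiogenic factor Vegfa was lower at 74.8 RPKM in WT1, 119 in KO1, 24.5 in WT2 and 27.2 in KO2, and the glucose transporter Slc2a3 higher at 0.820 and 0.425 against 3.71 and 3.19 RPKM. The oxidative stress list had 9 of 33 tested members called higher and 11 lower (median -0.11). Nqo1, a quinone reductase, was at 13.3 and 11 against 3.28 and 2.85 RPKM. The haem oxygenase gene Hmox1 was at 210.5 and 125 against 44.8 and 42.4 RPKM, and the thioredoxin reductase gene Txnrd1 at 138 and 107 against 36.4 and 40.3 RPKM. All 3 are known targets of the stress factor NRF2 and were lower, while the glutathione transferase Gstt1 was higher (0.350 and 0.197 against 3.13 and 1.70 RPKM). Heat shock genes gave 6 of 26 tested members called higher and 6 lower (median -0.24), with the small heat shock gene Hspb1 lower at 107 and 115 against 44.0 and 37.3 RPKM. In the amino acid and unfolded protein stress list, 13 of 35 tested members were called higher in replicate 2 and 2 lower, with a median difference of 0.13, a share of 37.1% higher beside 35.8% for all genes. Median-ratio scaling gave 11 higher and 13 lower and a median of -0.15. Trib3, a pseudokinase induced by ATF4, was at 10.3 RPKM in WT1, 10.1 in KO1, 53.3 in WT2 and 63.8 in KO2. For cholesterol genes, 12 of 32 tested members were called higher in replicate 2 and 2 lower, with a median difference of 0.35. That share of 37.5% higher lies near the 35.8% of all genes, and after median-ratio scaling the counts were 9 higher and 3 lower. A fit lacking WT2 gave the hypoxia list 7 higher and 3 lower, and 6 and 3 without KO2. For the hypoxia list the median was 0.0241 with a mean of at least 1 RPKM required, 0.0643 without KO1 and 0.0781 without WT2. For the oxidative stress list, leaving out WT1 gave 9 higher and 7 lower, 3 and 4 without WT2, and 5 and 3 without KO2. For the oxidative stress list the median was -0.0686 with no filter, -0.37 after median-ratio scaling, -0.34 after quantile normalization, -0.0673 without WT1, -0.17 without KO1 and -0.20 without KO2. In the heat shock list the counts without KO1 were 3 and 6, 2 and 1 without WT2, and 1 and 2 without KO2. For the heat shock list the median was -0.51 after median-ratio scaling. A fit lacking WT1 gave the amino acid and unfolded protein list 12 higher and 0 lower, 6 and 0 without WT2, and 8 and 1 without KO2. For the amino acid and unfolded protein list the median was 0.00568 for genes with 1 transcript row, 0.21 without WT1, 0.0186 without KO1 and 0.0520 without KO2. For the cholesterol list, leaving out KO1 gave 7 higher and 2 lower, 2 and 0 without WT2, and 3 and 1 without KO2. For the cholesterol list the median was 0.0718 after median-ratio scaling, 0.22 after quantile normalization, 0.65 without WT1 and 0.21 without KO1.

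Markers of other cell types were measured because cultures from whole embryo bodies can hold more than fibroblasts. Blood and macrophage genes had the highest median of the 39 lists with 5 or more tested members, in that 14 of 15 tested members were called higher in replicate 2 and 0 lower, with a median difference of 1.95. The complement gene C1qa, made by macrophages, was at 5.18 RPKM in WT1, 0.483 in KO1, 32.3 in WT2 and 13.48 in KO2. C1qb was at 5.27 and 0.5 against 29.9 and 12.6 RPKM, and C1qc at 4.20 and 0.403 against 25.5 and 10.2 RPKM. For these, KO1 was the lowest library, and all 3 lost their calls whichever library was left out. The lysozyme gene Lyz2, the most abundant of these markers, was at 31.1 RPKM in WT1, 3.61 in KO1, 42.9 in WT2 and 28.0 in KO2 and had no call (adjusted p = 0.288). Summed over the 8 macrophage and blood markers present, RPKM was 47.7 in WT1, 5.45 in KO1, 135.7 in WT2 and 67.9 in KO2. Ptprc, the general blood cell marker, did not reach 0.5 RPKM in any library (0.144 and 0.0249 against 0.423 and 0.289 RPKM). With KO1 left out, 4 were called higher and 0 lower, 1 and 0 without WT2, and 4 and 0 without KO2. As alternatives the median stood at 1.26 with no filter and 1.18 without KO1. In bulk RNA more cells of a type and more RNA per cell cannot be told apart, and the part of such cells in the other differences was not tested.

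Mesothelial genes had 11 of 16 tested members called higher and 0 lower (median 1.48). The urothelial and mesothelial gene Upk3b was at 1.09 RPKM in WT1, 0.385 in KO1, 11.7 in WT2 and 6.24 in KO2, and Wt1, a transcription factor of mesothelium and kidney, at 0.666 and 0.0792 against 3.05 and 3.68 RPKM, with no call for Wt1 without WT2 or KO2. The 3 defining markers Wt1, Upk3b and Msln summed to 1.88 RPKM in WT1, 0.541 in KO1, 15.6 in WT2 and 10.8 in KO2. Cartilage and bone genes had 12 of 17 tested members called higher and 1 lower (median 1.01), with 21 of 38 members present untested. That median was 1.53 with a pseudocount of 0.1, 0.49 with no filter and 0.58 after quantile normalization. The list was led by the bone sialoprotein gene Ibsp (0.00774 and 0.0710 against 10.7 and 5.46 RPKM) and the parathyroid hormone receptor Pth1r (0.567 and 0.803 against 6.31 and 5.75 RPKM), while Tnfrsf11b, a decoy receptor that restrains bone resorption, was lower at 31.2 RPKM in WT1, 31.1 in KO1, 6.14 in WT2 and 5.06 in KO2. Their 5 defining markers summed to 22.9 RPKM in WT1, 27 in KO1, 20.5 in WT2 and 14.8 in KO2, with 2 of the 5 called higher. Adipocyte genes had 7 of 17 tested members called higher and 0 lower (median 0.46), with Zfp423, a preadipocyte factor, at 0.156 and 0.146 against 2.82 and 3.15 RPKM and the lipase gene Lpl at 2.10 RPKM in WT1, 3.48 in KO1, 13.7 in WT2 and 19.5 in KO2, whereas Adipoq was listed at 0 in all libraries but KO2. A fit lacking WT2 gave the cartilage and bone list 7 higher and 1 lower. For the adipocyte list the median was 0.22 after median-ratio scaling, and its 41.2% called higher lies near the 35.8% of all genes.

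Nerve and glial genes had 10 of 16 tested members called higher and 2 lower (median 0.91), with 17 of 33 members present untested. The median became 1.51 with a pseudocount of 0.1, 0.29 with no filter and 0.48 after quantile normalization. The summed RPKM of the members present was 194 in WT1, 224 in KO1, 138 in WT2 and 164 in KO2, so the sum went down while more members were called higher. The neurotrophin receptor Ngfr was at 2.18 and 2.12 against 10.3 and 9.23 RPKM and the neural crest factor Sox10 at 0.842 and 0.816 against 3.97 and 3.40 RPKM, while Nes, the nestin gene of progenitor and mesenchymal cells, was lower at 85.5 RPKM in WT1, 93.6 in KO1, 19.3 in WT2 and 22.2 in KO2. The neuronal gene Elavl3 did not pass 0.1 RPKM. Endothelial genes had 5 of 10 tested members called higher and 3 lower (median 0.51), and 2 higher and 3 lower after median-ratio scaling. As alternatives the median stood at 0.0566 with no filter, 0.27 after median-ratio scaling, 0.0693 after quantile normalization and 0.19 without KO1. The defining genes Pecam1 and Cdh5 were at 0.0185 and 0.0100 against 0.0451 and 0.0202 RPKM and 0.0228 and 0.0553 against 0.0497 and 0.0534 RPKM, near 0 throughout. Skeletal muscle genes gave 5 tested members of 37 listed, and the muscle creatine kinase gene Ckm was listed at 0 in all libraries but KO2. Of the epithelial genes 7 of 29 were tested. Pluripotency genes gave 2 tested members, of which Klf4, also an immediate early gene, was higher (20.1 and 20.1 against 33.2 and 35.9 RPKM). For the endothelial list, leaving out WT2 gave 2 higher and 1 lower, and 2 and 1 without KO2.

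**Figure D5:**
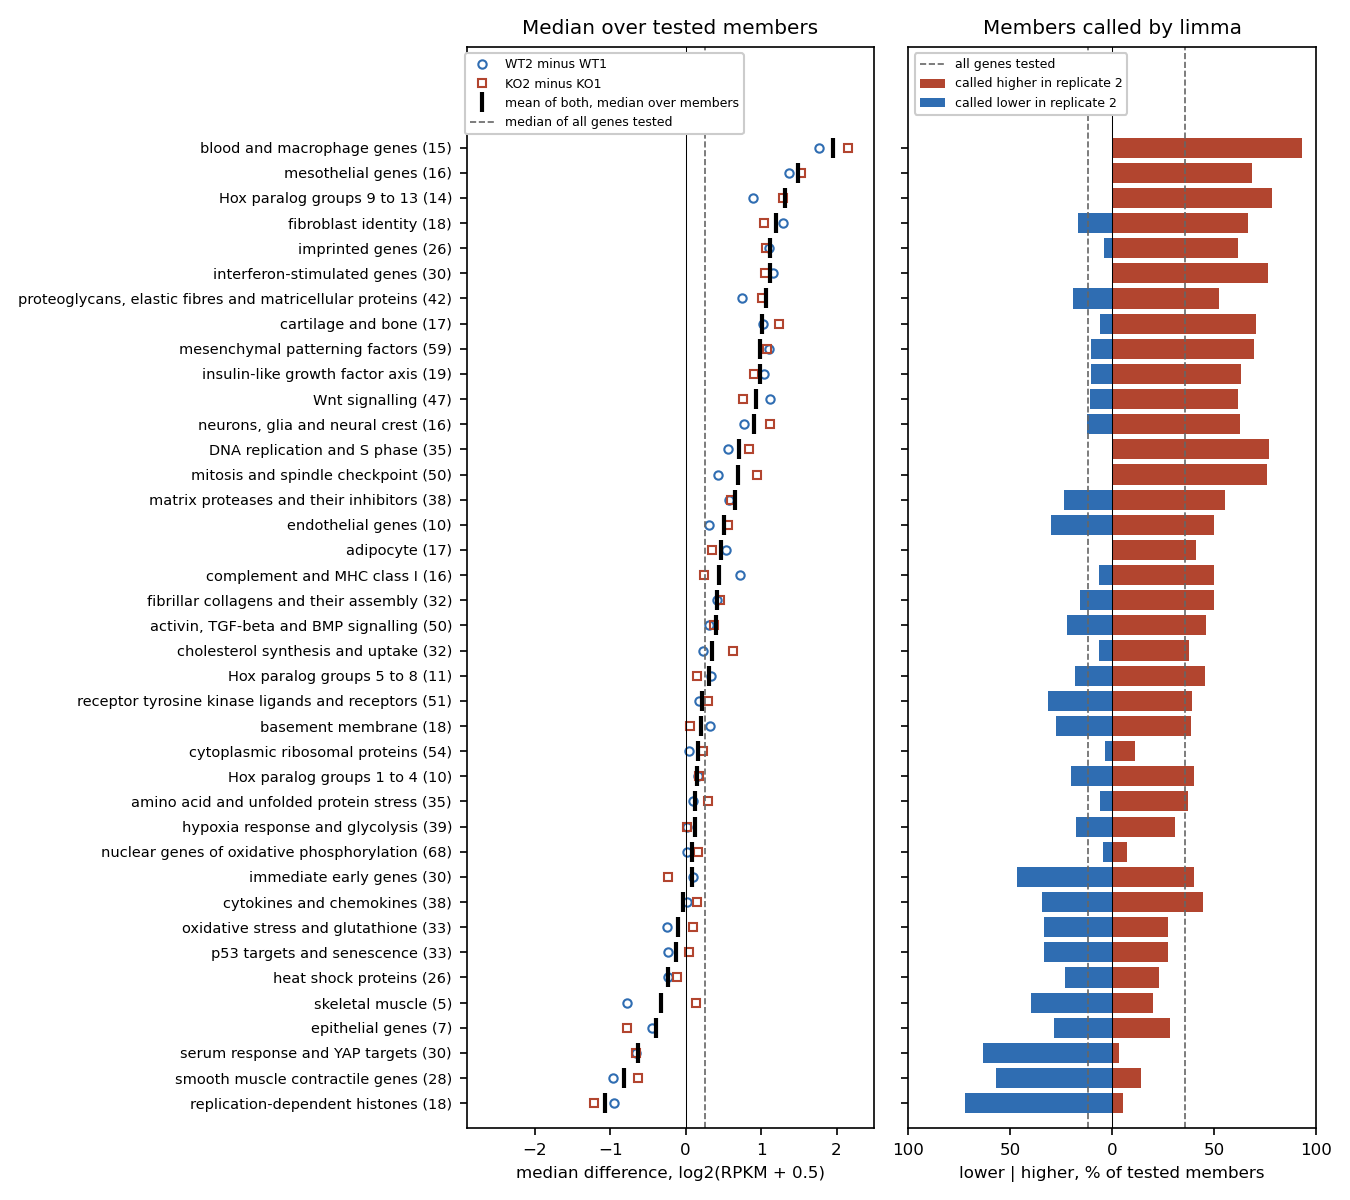
Left: median difference in log2(RPKM + 0.5) over the tested members of 39 gene lists (members in brackets), as circles for the WT pair, squares for the KO pair and bars for both, with a dashed line at the all-gene median of 0.25. Right: percentage of members called higher (to the right) or lower (to the left), with dashed lines at 35.8% and 11.9% for all genes. Blood and macrophage genes stand at 1.95 and replication-dependent histones at -1.06. After median-ratio scaling the 8 lists with medians from 0.08 to 0.21 turn negative.

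The difference also varied with technical properties of a gene. In 3 equal groups of genes by mean RPKM, from the lowest to the highest, the median difference was 0.45, 0.27 and 0.07, and 47.6%, 35.5% and 24.3% of genes were called higher. In 3 groups by genomic span it was 0.28, 0.24 and 0.24, and genes with 1 transcript row and with more rows stood at 0.25 and 0.27. Low expression went with higher values in replicate 2, in the libraries that were also deeper within each genotype. The part of depth in the calls was not tested, nor that of keeping only rows listed in the replicate 2 files.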

How the data were processed

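RNA was measured in 4 libraries, 2 of each genotype. RPKM values per transcript row on mouse build mm9 were deposited by the authors, with Partek among the tools in the submitters' processing notes. For the aligner, read filters, library depths and annotation, details were not given in the sources used here, and the labels' protocols give RiboMinus and poly-A selection. Because those values carry no counts, no count model was used. Rows shared by all 4 files were summed per gene. Genes reaching 0.5 RPKM in 2 or more libraries were fitted on log2(RPKM + 0.5) with limma 3.58.1 in R 4.3.3, with genotype and replicate number as terms, and trend and robust variance estimates. Benjamini-Hochberg adjustment covered all 11149 genes and the threshold was 0.05. Replicate number is the only grouping compared, and the processing that differs with it cannot be separated from it.

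The members and the 40 gene lists were chosen with earlier results of these data known. Named were Igf2, H19, Mest, Igfbp3, Inhba, Hells, Actb and Gapdh, the 12 called genes per direction with the largest smaller within-genotype difference, up to 4 called members per list and direction by that value, and defining markers of other cells near 0. Only a selection of these is described, and some are not reported here. Other pseudocounts, filters, scalings, transcript choices and fits, and each library left out, were tried. Promoter windows come from a RefSeq table of build GRCm38.p6, matched by gene symbol, and 8847 of the genes tested had 1 or more. No coordinate was moved between builds. Groups came from the sample titles, and 18 samples were not used here.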

Additional observations from a re-analysis of the deposited data

Results flagged for a closer look

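In 4 gene lists the median difference had opposite signs in the WT and the KO pair, with 1 library on each side of each pair, so the difference between genotypes was not tested. For skeletal muscle genes, of which 5 passed the filter, the median was -0.77 for WT2 minus WT1 and 0.14 for KO2 minus KO1, in log2(RPKM + 0.5). The list of p53 targets and senescence genes stood at -0.23 in the WT pair and 0.048 in the KO pair. Immediate early genes, which held 12 called higher and 14 called lower, stood at 0.093 and -0.24. Oxidative stress and glutathione genes stood at -0.24 and 0.10. With 2 libraries per group, no single library could be examined as an outlier.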

How the results depend on the processing

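Of 247 named genes with a call, 243 and 246 kept it with pseudocounts of 0.1 and 1, 228 after median-ratio scaling, 224 after quantile normalization and 145 without WT2, the lowest number of any alternative. Most named genes were chosen for a large difference in both genotypes, so keeping a call follows in part from that choice. Of all 5323 calls, 96.7% and 98.3% were kept with pseudocounts of 0.1 and 1. The share kept was 73.1% after median-ratio scaling and 67.4% after quantile normalization. Median-ratio scaling gave 2564 genes higher and 2378 lower, and quantile normalization 2319 and 2309. The genes at least 4-fold apart numbered 552 with a pseudocount of 0.1, as 424 higher and 128 lower. With a pseudocount of 1 the higher ones numbered 128, and after quantile normalization 127. With 1 library left out the called genes ranged from 2088 to 4509, the higher from 1613 to 3442 and the lower from 475 to 1083, lowest in each case without WT2. These fits have 3 libraries and no genotype term, so their spread includes the genotype difference.

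Several list medians changed sign. After median-ratio scaling they were -0.0106 for basement membrane, -0.18 for immediate early genes, -0.14 for hypoxia, -0.15 for amino acid and unfolded protein stress, -0.12 for ribosomal proteins, -0.18 for oxidative phosphorylation, -0.0727 for Hox groups 1 to 4 and -0.0446 for receptor tyrosine kinases. Quantile normalization gave -0.0754 for basement membrane, -0.10 for immediate early genes, -0.0057 for hypoxia, -0.0614 for oxidative phosphorylation, -0.18 for Hox groups 1 to 4, -0.32 for Hells and -0.0236 for Hoxd4. With no filter, skeletal muscle stood at 0.0808, epithelial genes at 0.0326 and immediate early genes at -0.0114. Cytokines stood at 0.0249 with the transcript of the highest mean and 0.57 for genes with 1 row. With 1 library left out the medians ranged from -0.73 to 0.37 for epithelial genes, -0.30 to 0.0542 for p53 targets, -0.16 to 0.26 for cytokines, -0.12 to 0.14 for immediate early genes, -0.20 to 0.0147 for oxidative stress and -0.0305 to 0.66 for Hox groups 5 to 8, and Hells from -0.10 to 0.47. The cause of these changes was not tested.

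With replicate number as the pair, no paired analysis was possible because that number is itself the contrast. The genotype term pairs the libraries of 1 genotype in the main fit, and 4645 genes were called without it. The planned correction for transcript length was not run, since no transcript length was used here. Depth is known only as a ratio between libraries, and single values carry no interval.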
